A study of Mus musculus with 8 samples.

Results

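The homeostatic microglia genes Cx3cr1, P2ry12, P2ry13, Tmem119, Sall1, Siglech, Gpr34 and Csf1r were followed in the retinal pigment epithelium (RPE)/choroid of old and young mice. The members were all probe sets annotated to 1 of these 8 genes alone, which gave 8 of 18193 genes and 12 of the 45101 probe sets of the array. The study compared RPE/choroid of old animals aged 26 months with that of young animals aged 4 months, all male C57BL/6 mice with no treatment or transgene named. There were 4 old and 4 young samples, and for each of them 4 RPE/choroids taken from 2 animals were combined and hybridized to 1 Affymetrix mouse array. The spread between samples is therefore that between pools of animals, and cell types within the tissue were not separated. In such bulk tissue, fewer cells of a type and less RNA per cell cannot be told apart.

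Microglia are the resident macrophages of the brain and the neural retina, while the choroid holds macrophages of its own kind. In the healthy nervous system microglia keep a set of surface receptors that sense their surroundings: Cx3cr1 binds fractalkine, P2ry12 and P2ry13 bind ADP, Gpr34 binds lysophosphatidylserine, and Csf1r binds the growth factors on which the cells depend for survival. Sall1 is a transcription factor that maintains microglial identity, and Tmem119 and Siglech are surface proteins used as microglial markers. Activated and disease-associated microglia are known to lower many of these genes. Several are also used elsewhere: Csf1r by nearly all macrophages and monocytes, Cx3cr1 by monocytes and cytotoxic lymphocytes, P2ry12 by platelets, Siglech by plasmacytoid dendritic cells and Tmem119 by osteoblasts.

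One of the 12 probe sets, that of P2ry12, rose in the RPE/choroid of old animals, and 0 fell (limma, Benjamini-Hochberg adjusted p under 0.05 over 45037 probe sets). At an unadjusted p under 0.05, 2 were higher, P2ry12 and P2ry13, and 1 was lower, a probe set of Sall1. Of all 45037 probe sets, 6889 were higher and 8094 lower at that unadjusted p. By the adjusted p, 9.22% of all probe sets were higher and 8.75% lower, 18% in either direction. With each array centred on its median these shares were 10.7% and 6.71%. The 1 of 12 higher is therefore close to the share of the whole array. The groups did not overlap for P2ry12 alone, against 12.3% of all probe sets with every old array above every young array and 12% with every old array below. With 1 probe set per gene, the one with the highest mean log2 level, the median difference of the 8 genes was -0.02 on the log2 scale, and that of all 18193 genes was also -0.02. No member had a fold over 2 together with an adjusted p under 0.01, thresholds that 0.764% of all probe sets passed with a rise and 0.0799% with a fall.

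**Figure D1:**
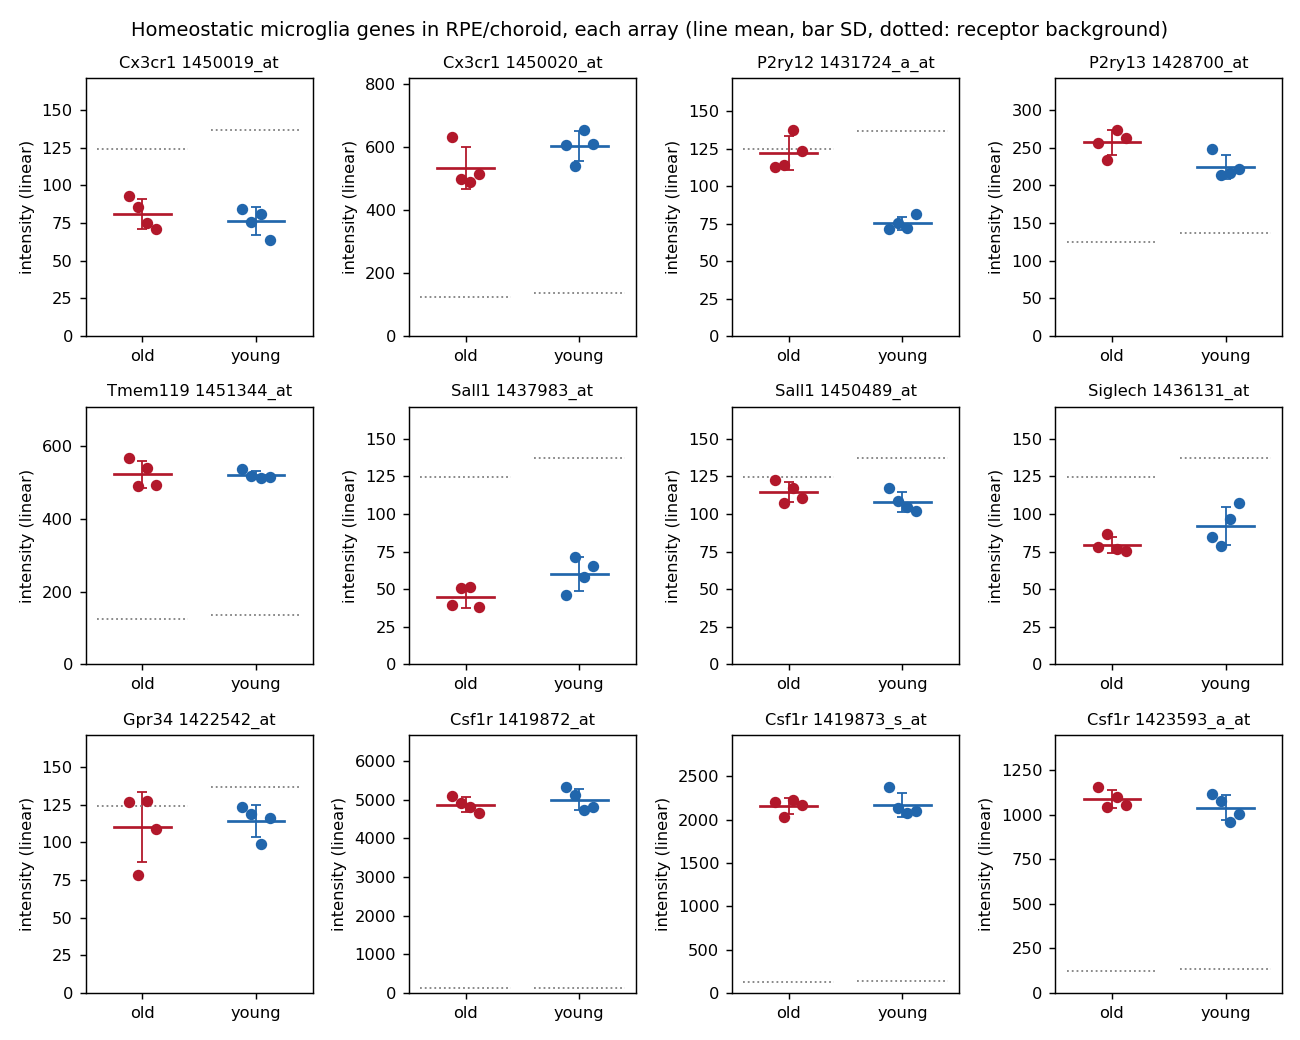
Intensity (linear, vertical axis, each panel with its own scale from 0) of the 12 probe sets in the 4 old and the 4 young arrays. Lines show group means, bars SDs and dotted lines the receptor background of each age. P2ry12 lies between 113 and 137 in old arrays and between 71.6 and 81.3 in young arrays, and the groups overlap in the other 11 panels.

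The level of each probe set was set against a background, since detection calls were not used here. The background was the 95th percentile of the mean level of 79 probe sets for olfactory, vomeronasal and trace amine receptors, which this tissue is not known to use. It lay at an intensity of 124 in old and 137 in young arrays. The mean log2 level of 6 of the 12 probe sets was below it at both ages: the P2ry12, Siglech and Gpr34 probe sets, both probe sets of Sall1 and 1 of Cx3cr1. Of all probe sets tested, 47.7% were below it at both ages, so the members did not stand apart in this. P2ry13, Tmem119, the other probe set of Cx3cr1 and the 3 of Csf1r were above it at both ages. Of the 21468 probe sets that were below the background at both ages, 9.63% still passed the test in one direction, and among the receptor probe sets 1 was higher and 5 were lower. A call below the background therefore shows a difference in signal, and whether that signal comes from the named transcript was not tested.

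The tissue carried the genes of its label. Rpe65, the isomerase of the visual cycle, averaged 11066 ± 254 in old and 11578 ± 543 in young arrays (SD, n = 4 each), and Plvap, which forms the diaphragms of the choroidal capillaries, was at 3314 ± 76.1 in old and 4056 ± 362 in young arrays (SD, n = 4 each). Of 9 RPE markers 5 were lower and 0 higher (2 lower without old replicate 2, 3 or 4 or young replicate 1, 3 or 4), with log2 differences of -0.41 for Tyr, -0.27 for Rlbp1, -0.25 for Lrat and -0.19 for Dct. Of 6 endothelial markers 5 were lower and 0 higher (2 lower without old replicate 3), with log2 differences of -0.61 for Tie1, -0.56 for Kdr, -0.41 for Cdh5 and -0.31 for Esam. In both lists 0 were higher at an unadjusted p under 0.05 too. Of all 18193 genes 11.8% were higher and 9.56% lower. At an unadjusted p under 0.05, 3357 of all genes were higher and 3447 lower. Array medians ran from 129 to 135.

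P2ry12, the Gi-coupled ADP receptor through which microglia sense ATP released by injured cells, was higher in every old array. Its single probe set, 1431724_a_at, was at 113, 114, 137 and 123 in old replicates 1 to 4 and at 71.6, 75.4, 71.9 and 81.3 in young replicates 1 to 4. The lowest old array was above the highest young array, and the highest old value was that of old replicate 3. The log2 difference was 0.70 (standard error 0.08, adjusted p = 0.000511 from limma), a fold of 1.62 with a 95% interval from 1.44 to 1.83. The old mean, 122 ± 11.4 (SD, n = 4), lay just under the receptor background and the young mean, 75.1 ± 4.5 (SD, n = 4), well under it. A filter that kept probe sets above the background in at least one age removed P2ry12 from the fit. Platelets also carry P2ry12, and of 8 platelet markers 4 were higher and 0 lower, with Clec1b, Ppbp, Gp6 and Gp5 higher by 1.22, 1.06, 0.33 and 0.18 on the log2 scale (1 lower at an unadjusted p under 0.05). The summed intensity of the 8 ran from 915 to 1443 in old and from 886 to 924 in young arrays, with Gp9, Gp6 and Gp5 below the background at both ages. The count of 4 fell to 1 without old replicate 3, young replicate 3 or young replicate 4. In old replicate 1 the centred mean log2 value of the platelet list was -0.11, against 0.20 to 0.37 in the other old arrays, and without old replicate 1 the log2 difference of P2ry12 was 0.73. The part of platelets in the P2ry12 value was not tested.

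P2ry13, an ADP receptor closely related to P2ry12 and its neighbour on mouse chromosome 3, was at 257, 234, 273 and 263 in old replicates 1 to 4 by probe set 1428700_at. The young replicates 1 to 4 were at 248, 214, 216 and 221. The groups overlapped because young replicate 1 was above old replicate 2. The log2 difference was 0.19 (standard error 0.07), with a 95% interval from 0.03 to 0.35, and did not pass the test (adjusted p = 0.0915 from limma). With array weights or with the low probe sets left out of the fit it passed, at an adjusted p of 0.0327 and 0.0491, over a range of adjusted p from 0.0327 to 0.208 in all alternatives run. In those fits 11.5% and 19.0% of all fitted probe sets were higher, against 9.22% in the main fit. The difference between the changes of P2ry12 and P2ry13 was not tested.

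The promoters of these neighbours are shown because one of the genes passed the test and the other did not. They are the 300 bases of RefSeq annotation on GRCm38.p6 from 250 before to 50 after the start of the gene, for P2ry12 at chr3:59262936-59263235 and for P2ry13 at chr3:59210833-59211132, both on the minus strand and read along the gene. Capitals mark GAGGAA, one of the sequences that the macrophage factor PU.1 is known to bind, and other forms were not searched.
P2ry12: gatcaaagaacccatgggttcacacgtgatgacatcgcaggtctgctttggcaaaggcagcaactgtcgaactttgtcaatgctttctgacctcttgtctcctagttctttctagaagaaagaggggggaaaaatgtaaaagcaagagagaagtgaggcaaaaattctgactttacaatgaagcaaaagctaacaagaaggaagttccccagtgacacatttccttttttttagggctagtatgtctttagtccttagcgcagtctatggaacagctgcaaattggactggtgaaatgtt
P2ry13: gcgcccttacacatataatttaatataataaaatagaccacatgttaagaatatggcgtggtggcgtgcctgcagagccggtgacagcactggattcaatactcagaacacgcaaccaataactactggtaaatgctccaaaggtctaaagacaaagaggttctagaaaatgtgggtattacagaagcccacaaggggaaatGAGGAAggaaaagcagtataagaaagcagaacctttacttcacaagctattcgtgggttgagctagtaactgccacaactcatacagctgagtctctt
GAGGAA was searched on both strands, the other strand reading TTCCTC. P2ry13 held 1 match, 48 bases before the start, and P2ry12 held 0. Of the 8 genes, 5 had a window in the table, and the Siglech window held 1 match on the other strand while those of Cx3cr1 and Sall1 held 0. Of all 32851 windows, 28.3% held a match. Such a match is a description of the letters and does not show binding, and no match says only that these letters are not in the window.

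Gpr34, a receptor of the same branch of G protein-coupled receptors as P2ry12, was at 127, 78.0, 128 and 109 in old replicates 1 to 4. In young replicates 1 to 4 it was at 123, 119, 98.8 and 116. Old replicate 2 was the lowest of all arrays, and the other old arrays lay within or just above the young values. The log2 difference was -0.07 with a 95% interval from -0.41 to 0.27 (adjusted p = 0.776 from limma), an interval that holds a fold from 0.75 to 1.2.

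Cx3cr1, the receptor for fractalkine that anchors microglia to neurons and endothelium, was measured by 2 probe sets. Probe set 1450020_at, above the background, was at 633, 498, 490.0 and 515 in old replicates 1 to 4 and at 608, 541, 655 and 610.2 in young replicates 1 to 4. The other 3 old arrays lay below every young array, while old replicate 1 lay among them. The log2 difference was -0.18 (standard error 0.09, 95% interval from -0.39 to 0.03), which did not pass the test (adjusted p = 0.213 from limma). Without old replicate 1 it passed, with a log2 difference of -0.27 (adjusted p = 0.0398), while over all alternatives its adjusted p ran from 0.0398 to 0.404. Probe set 1450019_at was below the background, from 70.9 to 92.8 in old and from 63.6 to 84.3 in young arrays, with a log2 difference of 0.09 (adjusted p = 0.623).

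Genes around the Cx3cr1 ligand did not pass the test. Cx3cl1, which encodes fractalkine, averaged 571 ± 13.7 in old and 583 ± 33.3 in young arrays (SD, n = 4 each), a log2 difference of -0.03 with a 95% interval from -0.16 to 0.10. Adam10 and Adam17, the proteases that shed fractalkine from the cell surface, had log2 differences of -0.15 and 0.15 (adjusted p = 0.192 and 0.0853 from limma). For Adam17 every old array, from 635 to 690.1, was above every young array, from 578 to 617.

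Csf1r, the receptor tyrosine kinase for CSF1 and IL-34 on which microglia and most tissue macrophages depend, was at nearly the same level at both ages by all 3 of its probe sets. Probe set 1419872_at was at 5105, 4902, 4813 and 4654 in old replicates 1 to 4 and at 5330.5, 5130.4, 4735 and 4816 in young replicates 1 to 4. The groups overlapped over most of their range. The log2 difference was -0.04 (standard error 0.06, adjusted p = 0.691 from limma), and the 95% interval of the fold ran from 0.888 to 1.07. Probe set 1419873_s_at had a log2 difference of -0.01, with 2028 to 2219.9 in old and 2073 to 2377 in young arrays. Probe set 1423593_a_at had one of 0.07, with 1041 to 1156 in old and 961 to 1117 in young arrays. The upper bound of the fold over the 3 probe sets was 1.16, that of 1423593_a_at, and the lower bound was 0.888.

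The ligands of Csf1r were also close at the 2 ages. Csf1 averaged 479 ± 17.2 in old and 461 ± 31.1 in young arrays (SD, n = 4 each), a log2 difference of 0.06 with a 95% interval from -0.09 to 0.20. Il34, the ligand that neurons and keratinocytes make, was below the background, at 113 ± 6.48 in old and 106 ± 6.57 in young arrays (SD, n = 4 each), with a log2 difference of 0.10 (adjusted p = 0.313 from limma).

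Tmem119, a membrane protein of microglia whose role is not settled, was at 566, 489.5, 540.3 and 492 in old replicates 1 to 4 by its probe set 1451344_at. The young replicates 1 to 4 were at 537, 518, 513 and 514. The old arrays lay on both sides of the young ones and were more spread. The log2 difference was 0.00 (standard error 0.06, adjusted p = 0.985 from limma), with a 95% interval from -0.14 to 0.14. Osteoblasts and their precursors use Tmem119 too. Of 5 osteoblast markers 1, Ibsp, was higher and 1, Alpl, lower, with log2 differences of 0.38 and -0.30. Ibsp did not pass without old replicate 4 or young replicate 1, 2 or 4. Alpl did not pass without old replicate 1 or 2 or young replicate 1 or 3. Sp7, the factor that defines osteoblasts, was below the background at both ages, as were Ibsp, Dmp1 and Phex.

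Sall1 and Siglech, which among macrophages mark microglia most closely, were below the background at both ages. Sall1 probe set 1450489_at was at 107 to 122 in old and 102 to 117 in young arrays, a log2 difference of 0.08 (adjusted p = 0.419 from limma). Its other probe set, 1437983_at, was at 39.4, 51.0, 51.4 and 38.1 in old replicates 1 to 4 and at 45.9, 71.6, 57.8 and 65.5 in young replicates 1 to 4. That is a log2 difference of -0.41 (standard error 0.15, adjusted p = 0.0908), and the 2 probe sets differed in sign. Without young replicate 1, whose value lay among the old arrays, 1437983_at passed with a log2 difference of -0.54 (adjusted p = 0.036), over a range of adjusted p from 0.036 to 0.19 in all alternatives. Siglech, a sialic acid-binding receptor, was at 77.9, 86.9, 76.9 and 75.5 in old replicates 1 to 4 and at 85.0, 78.7, 96.4 and 107 in young replicates 1 to 4. Its log2 difference was -0.20 (standard error 0.10, adjusted p = 0.179), which passed with array weights alone (adjusted p = 0.0489). In that fit 12.7% of all probe sets were lower, against 8.75% in the main fit. Of 8 markers of plasmacytoid dendritic cells, which also carry Siglech, Bst2 was higher by 0.65 and 0 were lower (2 lower at an unadjusted p under 0.05, and 1 past the test without young replicate 2), and Ly6d, Ccr9 and Spib were below the background.

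Most genes of a pan-macrophage list rose, while Csf1r, which nearly all macrophages also use, did not pass the test. Of 12 pan-macrophage genes 11 were higher and 0 lower (12 higher and 0 lower at an unadjusted p under 0.05), against 11.8% of all genes higher and 9.56% lower, with a median log2 difference of 1.20. Itgam, the integrin chain CD11b, was at 216 to 273 in old and 64.9 to 105 in young arrays. Cd68, Fcgr3 and Cd53, a lysosomal glycoprotein, an IgG receptor and a leukocyte tetraspanin, were higher by 1.47, 1.41 and 1.31 on the log2 scale. Tyrobp, the signaling adaptor that couples to Trem2, averaged 6634 ± 274 in old and 3087 ± 194 in young arrays (SD, n = 4 each), and Spi1, which encodes PU.1, rose by 1.15. Cd14 did not pass (log2 difference 1.11, adjusted p = 0.0685), since old replicate 2 stood apart at 2073 while old replicates 1, 3 and 4 spanned 553 to 628. These genes were chosen with their rise on these arrays known, so their direction is not independent evidence.

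**Figure D2:**
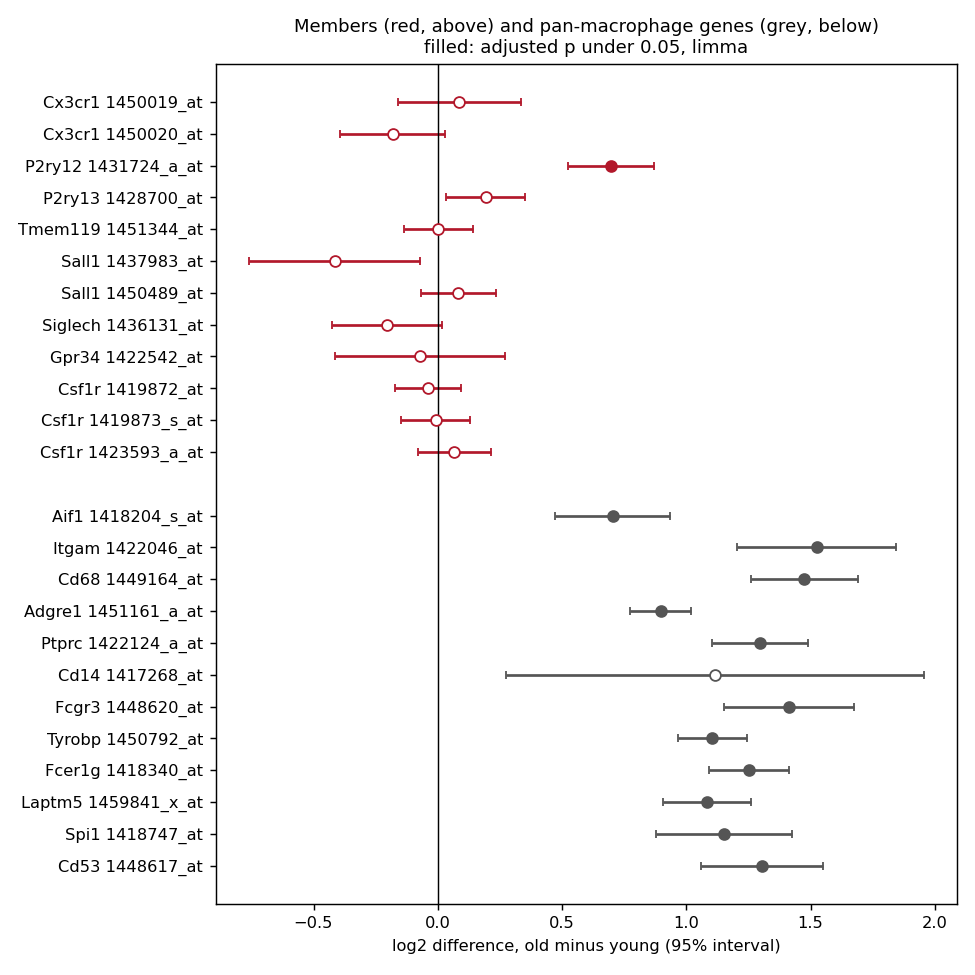
Log2 difference of old minus young (horizontal axis, 95% interval from limma) for the 12 member probe sets in red and for 12 pan-macrophage genes in grey. Filled points passed an adjusted p of 0.05. P2ry12 at 0.70 is the filled point among the members, while 11 of the 12 pan-macrophage genes are filled, from 0.70 for Aif1 to 1.52 for Itgam.

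The change of each member was then compared with that of the pan-macrophage genes in the same arrays. The mean log2 value of the 12 pan-macrophage genes averaged 10.66 ± 0.18 in old and 9.46 ± 0.10 in young arrays (SD, n = 4 each), a difference of 1.19. Relative to this mean, all 12 member probe sets were lower in every old array than in every young array, with differences from -1.61 for Sall1 1437983_at to -0.50 for P2ry12. For Csf1r 1419872_at the relative difference was -1.23 (standard error 0.14), and for Cx3cr1 1450020_at it was -1.37 (standard error 0.16). By limma over all probe sets, 12 of 12 were lower relative to the mean, but so were 98.8% of all probe sets, with 0.249% higher. Since the 12 genes of the mean were chosen with their rise known and nearly every probe set was lower relative to it, these values are a description and do not set the members apart from other genes.

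Other genes that microglia express in health were divided. Of 15 measured genes of this kind 6 were higher and 1 lower, against 11.8% and 9.56% of all genes. Their median log2 difference was 0.15, and that of all genes was -0.02. Lgmn, a lysosomal protease, and Rnase4, a secreted ribonuclease, were higher by 1.09 and 1.08 on the log2 scale. Irf8, a transcription factor of the macrophage lineage, averaged 717 ± 94.6 in old and 381 ± 15.5 in young arrays (SD, n = 4 each), a log2 difference of 0.91 (adjusted p = 0.0003 from limma). Tgfbr1, a receptor chain for TGF-beta, was higher by 0.77, Selplg, a selectin ligand of leukocytes, by 0.67 and Olfml3, a secreted matrix protein, by 0.57. Golm1, a Golgi membrane protein of many epithelia, fell by 0.20 (adjusted p = 0.0209), a call that was lost without old replicate 3 or young replicate 1, while 2 genes of the list were lower without young replicate 2. Fcrls and Slc2a5, which among these genes are the most restricted to microglia, did not pass. Fcrls, an Fc receptor-like protein, was at 262 to 453 in old and 246 to 284 in young arrays, a log2 difference of 0.24 (adjusted p = 0.311). Slc2a5, a fructose transporter, was at 116 to 128 in old and 131 to 156 in young arrays, a log2 difference of -0.21 (adjusted p = 0.0576). Every old array was below every young array for Slc2a5 (unadjusted p = 0.0112 from limma). Crybb1, Mef2c, Ecscr, Bin1, Mertk and Cst3 had log2 differences from -0.06 to 0.15 and did not pass.

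Partners that act on the members' pathways were counted as a list. Of 12 such genes 4 were higher, namely Tyrobp, Tgfb1, Tgfbr2 and Entpd1, and 0 were lower, against 11.8% and 9.56% of all genes. Tyrobp is also one of the pan-macrophage genes counted above. Under quantile normalization or without old replicate 4, 1 of the 12 was lower. At an unadjusted p under 0.05, 5 were higher and 1 lower, against 3357 and 3447 of all 18193 genes. Tgfb1, the cytokine that microglia need to keep their homeostatic program, averaged 546 ± 42.1 in old and 314 ± 50.1 in young arrays (SD, n = 4 each), a log2 difference of 0.81 (adjusted p = 0.00136 from limma). Its receptor chain Tgfbr2 was higher by 0.37 (adjusted p = 0.00307), while Smad3, which carries the signal to the nucleus, had a log2 difference of 0.08 (adjusted p = 0.401). Entpd1, the ectoenzyme CD39 that removes the ADP sensed by P2ry12 and P2ry13, was at 577 to 695 in old and 476 to 544 in young arrays, a log2 difference of 0.31 (adjusted p = 0.0229). Nt5e, which turns the resulting AMP into adenosine, had a log2 difference of -0.25 (adjusted p = 0.0943), and Gnai2, a G protein chain that such receptors use, one of 0.11 (adjusted p = 0.277).

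Genes of other macrophage states are given for comparison. Of 12 measured disease-associated microglia genes 9 were higher and 0 lower (0 lower at an unadjusted p under 0.05), against 11.8% and 9.56% of all genes. Itgax, Trem2, Clec7a and Lgals3 were higher by 2.29, 1.44, 1.18 and 1.04 on the log2 scale. Apoe, Cst7 and Lpl had log2 differences of 0.09, 0.08 and -0.10 and did not pass. Gpnmb, Ctsb and Ctsd, also among the 9, averaged 7965, 10186 and 9554 in young arrays. The RPE markers Lrat and Rlbp1 averaged 7758 and 9842 there. Which cells gave the signal of Gpnmb, Ctsb and Ctsd was not tested. Of 13 border macrophage genes 3 were higher and 0 lower, against 11.8% and 9.56% of all genes. Those higher were Ms4a7 by 0.93, the mannose receptor Mrc1 by 0.70 and the endocytic adaptor Dab2 by 0.51. At an unadjusted p under 0.05, 2 were lower, Siglec1 and Clec10a, each with a log2 difference of -0.16. Folr2 had one of -0.13, and the rest of the list, from 0.04 for Lyve1 to 0.63 for Pf4, did not pass. Siglec1, Clec10a, Folr2 and Cd163 were below the background at both ages. Without old replicate 2, 1 gene of the list was lower. Of 7 measured monocyte genes 3 were higher and 1 lower, against 11.8% and 9.56% of all genes. Their log2 differences were 1.92 for Fn1, 1.20 for S100a4, 0.96 for Spn and -0.26 for Vcan. The chemokine receptor Ccr2, above the background, had a log2 difference of -0.07 and did not pass (adjusted p = 0.414 from limma). Vcan was below the background at both ages, and 2 genes of the list were lower without young replicate 2. The border macrophage mean was highest in old replicate 2, at 0.40 on the centred log2 scale, against -0.01 to 0.12 in the other old arrays and -0.21 to -0.04 in young arrays.

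**Figure D3:**
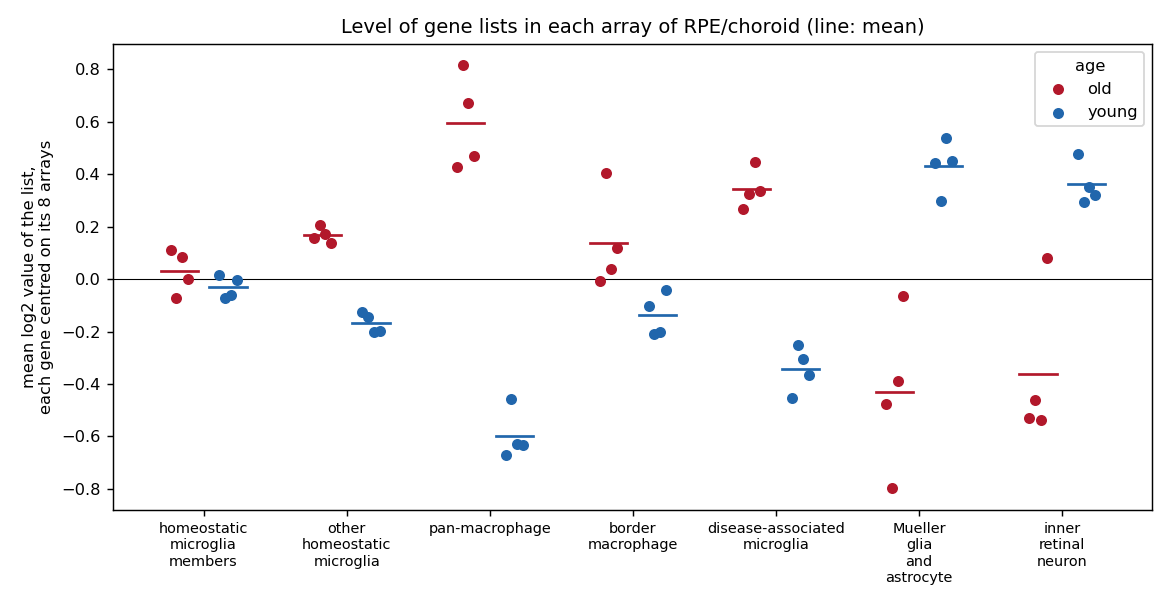
Mean log2 value of 7 gene lists (vertical axis, every gene set to a mean of 0 across arrays) in the 4 old and the 4 young arrays. Lines show group means. The homeostatic members span -0.07 to 0.11 in old and -0.07 to 0.02 in young arrays and overlap, while the pan-macrophage list spans 0.43 to 0.82 in old and -0.67 to -0.46 in young arrays.

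Retinal genes also differed between the ages, and the retina holds microglia. Mueller glia and astrocytes were followed by 8 markers, of which 4 fell and 0 rose (0 higher at an unadjusted p under 0.05 too), with log2 differences of -1.62 for Fabp7, -1.41 for Slc1a3, -1.24 for Sox2 and -0.98 for Gfap. Inner retinal neurons had 11 measured markers, of which 5 fell and 1, Thy1, rose, with log2 differences of -2.65 for Cartpt, -1.24 for Stmn3, -0.90 for Grik1 and -0.76 for Gria1, the last below the background at both ages. Thy1 did not pass under quantile normalization or without old replicate 3 or 4 or young replicate 1, 2 or 3. For these neurons old replicate 4 had a centred mean of 0.08, while old replicates 1 to 3 had -0.54 to -0.46 and young arrays 0.29 to 0.48. Rod markers varied within both ages. Of 6 rod markers 0 passed in either direction, also at an unadjusted p under 0.05, with a median log2 difference of -0.57 and with Gngt1 and Sag at -0.78 and -0.64. Their summed intensity ran from 7444 to 18590.1 in old and from 9476 to 19895 in young arrays. In old replicate 4, the member values lay within the range of the other old arrays or within 0.10 of it on the log2 scale, and without that array P2ry12 had a log2 difference of 0.69 (adjusted p = 0.00191). The part of retinal tissue in the member values was not tested. Of 6 measured markers of natural killer and cytotoxic cells, which can carry Cx3cr1, Nkg7 and Klrd1 were higher by 1.36 and 0.38 and 0 were lower (0 at an unadjusted p under 0.05 too), and 5 of the 6 were below the background, Nkg7 and Klrd1 among them. Only 1 was higher without old replicate 2 or 3 or young replicate 1 or 3.

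The genes whose values over the 8 arrays were most like those of 3 members were named as a description, by Pearson's r of log2 values among the genes above the background in at least 1 age. For P2ry12 they were Gng12, Slc17a5 and Rasa4, with r of 0.998, 0.997 and 0.997 among 12592 genes. For Cx3cr1 they were Gnpda1, Ankrd36 and Txndc12, with r of 0.968, 0.964 and 0.949, and for Csf1r they were Cpsf4l, Yipf1 and Gimap8, with r of 0.924, 0.920 and 0.913. The 8 points share the age groups, and for P2ry12 all 3 of its nearest genes were higher in old arrays, by 0.42, 0.22 and 0.33 on the log2 scale. With the mean of each age taken out, the r of these genes with P2ry12 was 0.973, 0.965 and 0.955. All named genes were picked for the highest r over only 8 arrays, so a high r follows in part from the choice. The P2ry12 probe set was also below the background.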

How the data were processed

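RNA from RPE/choroid of 4 old and 4 young pools was hybridized by the authors to Affymetrix mouse expression arrays, 1 array per pool. The deposited values were used as linear probe set intensities, with no further normalization in the main fit. The study's methods name GCOS for the first quantification of the images and RMA, dChip and BRB-ArrayTools for its analyses. Which of them gave this table, and how it was normalized, is not stated. Low values may therefore carry a background correction that cannot be checked. Array medians ran from 129 to 135, 8 to 14 values per array were below 1, and arrays of one age correlated at 0.991 or more. Precision is limited by the 4 arrays per age.

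Values under 1 were set to 1 and log2 was taken. After removal of 64 control probe sets, 45037 were fitted with limma 3.58.1 in R 4.3.3 (lmFit and eBayes, old minus young, no covariate). The p-values were adjusted by Benjamini-Hochberg over the whole table, and the threshold was 0.05. Genes were named from the platform annotation, in which 34945 probe sets had 1 gene, 932 several and 9160 none. For lists, each gene was represented by its brightest probe set on the log2 scale. Samples with the same replicate number did not deviate together (r of 0.0971, 0.0190, 0.0218 and 0.0427), so no block was used. In simulated data with 100 changed probe sets of each size among 45037, the fit found 54% of log2 changes of 0.5 and 93% of changes of 1, with 6 false calls. Far more probe sets passed in the data (18%), which loosens the adjusted threshold, so these shares do not carry over to the data.

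The members and the gene lists were chosen with earlier results of these data known. Named were every member probe set, every ligand and partner, in each other list the 4 genes with the largest change past the threshold (or the 2 with the smallest p where none passed), and the 3 genes most like Cx3cr1, P2ry12 and Csf1r. Other genes that are named were chosen after their values were seen. Alternatives were quantile normalization, median centring, log2(value + 16), a floor of 32, a filter on low values, trended robust eBayes, array weights, the replicate block, each array left out and the stricter thresholds of the study (adjusted p under 0.01, fold over 2). Protein sequences were not used here.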

Additional observations from a re-analysis of the deposited data

How the results depend on the processing

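P2ry12 was higher under each of the 15 alternatives that fitted it, with log2 differences from 0.60 to 0.74 and adjusted p from 5e-05 to 0.00422. The filter on low values removed it, and the 1 probe set higher there was P2ry13 (0.19, adjusted p = 0.0491). Of all probe sets that the filter kept, 19.0% were higher and 15.9% lower. With the replicate number as a block, P2ry12 had a log2 difference of 0.70 (adjusted p = 0.00422), and the block changed no call among the members (1 higher, 0 lower). The count of members higher was 2 and lower 1 with array weights, where P2ry13 and Siglech also passed. Array weights raised the calls over all probe sets too, to 11.5% higher and 12.7% lower, from 9.22% and 8.75%. At a fold over 2 with an adjusted p under 0.01, 0 members were higher. With each array left out, 1 to 1 were higher and 0 to 1 lower, the lower one being Cx3cr1 1450020_at without old replicate 1 and Sall1 1437983_at without young replicate 1. The sign changed for members near 0: Tmem119 under quantile normalization (-0.041), Csf1r 1419873_s_at under median centring (0.0189) and array weights (0.0197), and Gpr34 under array weights (0.00981). With each array left out, Tmem119 ran from -0.0375 to 0.0321, Csf1r 1419873_s_at from -0.0306 to 0.0352 and Gpr34 from -0.151 to 0.0849. The cause was not tested in any of these. Over the members' probe sets, 169 results kept direction and side of the threshold, 12 changed sign and 5 newly passed. With 1 array left out, the platelet list had 1 to 5 higher, the RPE list 2 to 5 lower, the endothelial list as few as 2 lower without old replicate 3, and the osteoblast list 0 to 1 in each direction. The 6 probe sets near the background limit what can be said of P2ry12, Sall1, Siglech and Gpr34. Changes of 0.5 were found for 54% of simulated probe sets. The simulation changed a far smaller share than the 18% that passed in the data, so its adjusted threshold was stricter. The 54% is therefore not the share found in these data, and small changes may still have been missed.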
